A study of Homo sapiens with 6 samples.

Results

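Prostate surface antigens and therapy targets were examined in 22Rv1 cells with and without knockdown of MED12, a Mediator subunit that belongs to its kinase module. The set held 9 genes, chosen by gene name from the 62703 genes of the count table: FOLH1, STEAP1, STEAP2, SLC45A3, TMEFF2, PSCA, TRPM8, ACP3 and CD276. Of these, 7 passed the filter on low counts and were tested, and PSCA and TRPM8 did not pass it.

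22Rv1 is an established human castration-resistant prostate cancer line, and it is resistant to the drug enzalutamide. The siCtrl group (3 libraries) received a non-targeting siRNA pool and the siMED12 group (3 libraries) an ON-TARGETplus SMARTpool against MED12. In both groups 25 pmol of siRNA was given 24 h after seeding, the medium was replaced after 6 h and RNA was taken after 3 days. Both groups grew in RPMI-1640 with fetal bovine serum, and no androgen or enzalutamide treatment is labelled in either. The knockdown was transient, was made with a pool of siRNAs in 1 line, and lowered MED12 mRNA without removing it. The study's methods state biological replicates for its experiments in general, and the labels do not say whether the 3 libraries of a group came from separate cultures, so the p-values measure the spread between these libraries, of whichever kind it is. In bulk RNA, fewer cells with a transcript and less transcript per cell cannot be told apart.

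Surface antigens of the prostate epithelium are used to image and to treat prostate cancer, because many of them are expressed in few other tissues and are retained or raised in tumors. FOLH1 encodes PSMA, a membrane carboxypeptidase and the target of PSMA radioligands and imaging tracers, and STEAP1 is a multispan membrane protein targeted by antibodies and T-cell engagers. Several antigens of the prostate lineage, among them SLC45A3 and TMEFF2, are known as androgen-regulated genes, whereas FOLH1 is known to be repressed by androgen.

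Library totals were between 16136699 and 17012788 counts. MED12 was 67.8, 77.7 and 72.6 CPM (counts scaled by library size and TMM factor) in siCtrl replicates 1, 2 and 3 and 23.9, 14.97 and 30.1 CPM in the siMED12 replicates. The log2 fold change was −1.66 (SE 0.23, edgeR quasi-likelihood adjusted p = 0.0314), or 64.8%, 80.7% and 58.5% less than in the siCtrl library of the same number. That call was lost without siCtrl replicate 1 or 2 or siMED12 replicate 1 or 2 (adjusted p = 0.0818, 0.186, 0.108 and 0.130). All 10 luminal prostate markers were at 1 CPM or more, whereas KRT5 and KRT14 (basal) and CD3E (leukocyte) were at 0 in every library. The summed luminal markers were 3756 to 4047 CPM in siCtrl and 3334 to 3610 CPM in siMED12. Of the 6 basal markers 2 were at 1 CPM or more, with sums of 89.5 to 119 CPM in siCtrl and 129 to 152 CPM in siMED12. Most of these sums came from DST, whose merged exons span 48142 bases, at means of 2.09 and 2.89 CPM per kilobase of exon. ITGA6 was at 0.550 and 0.621 and KRT15 at 0.151 and 0.138 CPM per kilobase of exon, and TP63 was near the floor. Neuroendocrine markers (5 of 7) summed to 296 to 340 CPM and 262 to 304 CPM, and stromal markers (4 of 7) to 29.3 to 41.2 CPM and 29.6 to 45.3 CPM. No leukocyte marker of 6 reached 1 CPM, with sums of 0.696 to 1.904 CPM and 0.713 to 1.502 CPM. The part of these marker sums in the results was not tested. The mitochondrial share of counts followed the replicate number, at 4.43% and 4.79% in the libraries numbered 1, 6.31% and 6.03% in those numbered 2, and 10.0% and 10.1% in those numbered 3.

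To ask which antigens 22Rv1 cells expressed, levels were compared between genes as CPM per kilobase of merged exons. STEAP1 was the highest of the set in siCtrl cells, at 96.7 ± 8.02 CPM per kb (SD, n = 3), a level above 97.9% of the tested genes. STEAP2, a metalloreductase of the same family, followed at 48.3 ± 4.89 CPM per kb and FOLH1 at 39.4 ± 1.84 CPM per kb, above 94.8% and 93.4% of tested genes. A middle group was made up of CD276, the immune checkpoint protein B7-H3, at 13.6 ± 0.630 CPM per kb, the transmembrane protein TMEFF2 at 11.004 ± 2.67 CPM per kb and the sugar transporter SLC45A3, also called prostein, at 9.97 ± 1.43 CPM per kb. ACP3, the prostatic acid phosphatase that exists in secreted and membrane forms and is the antigen of sipuleucel-T, was lower at 2.07 ± 0.226 CPM per kb, above 36.2% of tested genes. PSCA, a GPI-anchored antigen, was at 0.435 ± 0.222 CPM per kb. TRPM8, the cold- and menthol-gated cation channel, had 0 counts in all 6 libraries, which allows a level of up to 0.175 to 0.190 CPM per library (3 counts, counting error only).

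In siCtrl cells the ranges of neighbours in this order overlapped only for TMEFF2 and SLC45A3. The order was the same in the siMED12 means, but there the ranges of STEAP1 and STEAP2 and those of STEAP2 and FOLH1 overlapped as well as those of TMEFF2 and SLC45A3. STEAP1 averaged 58.8 ± 18.2 CPM per kb and STEAP2 49.9 ± 9.51 CPM per kb in siMED12 cells.

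**Figure D1:**
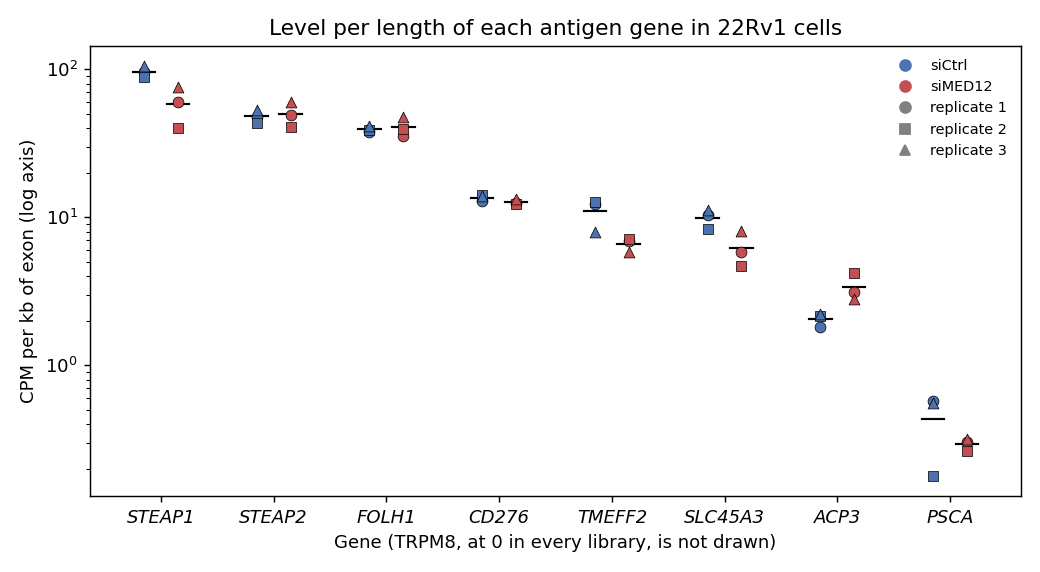
Level of each antigen (CPM per kilobase of merged exons, log axis) in the 3 siCtrl and 3 siMED12 libraries, with points for libraries and short lines for group means. STEAP1, STEAP2 and FOLH1 lie at the top and PSCA at the bottom, and TRPM8 had 0 counts in every library.

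To ask how MED12 knockdown bore on these genes, siMED12 was compared with siCtrl gene by gene. STEAP1, TMEFF2 and SLC45A3 were lower and ACP3 was higher in all 3 siMED12 libraries than in any siCtrl library, whereas FOLH1, STEAP2 and CD276 overlapped between groups. Complete separation upward was found for 11.2% and downward for 10.9% of all tested genes. With no term for the replicate number (unblocked), 0 of the 7 tested antigens had an adjusted p below 0.05 in edgeR in either direction, against 0.151% of all tested genes higher and 0.413% lower. At an unadjusted p below 0.05 there were 4 of 7, against 15.6% of all tested genes. The DESeq2 Wald test called 1 antigen higher and 3 lower, against 2.29% higher and 3.42% lower of the 14428 genes to which it gave an adjusted p. Libraries of equal replicate number moved together around their group means. When edgeR took that number as a block (blocked), it called ACP3 higher (1 of 7) and STEAP1, TMEFF2 and SLC45A3 lower (3 of 7), against 17.1% of all tested genes higher and 16.2% lower. The median log2 fold change of the 7 antigens was −0.11, beside 0.02 over all tested genes. The antigens, and the gene lists used below, were chosen with earlier results of these data known. Their counts beside the shares of all genes are therefore a description and not a test of the set.

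**Figure D2:**
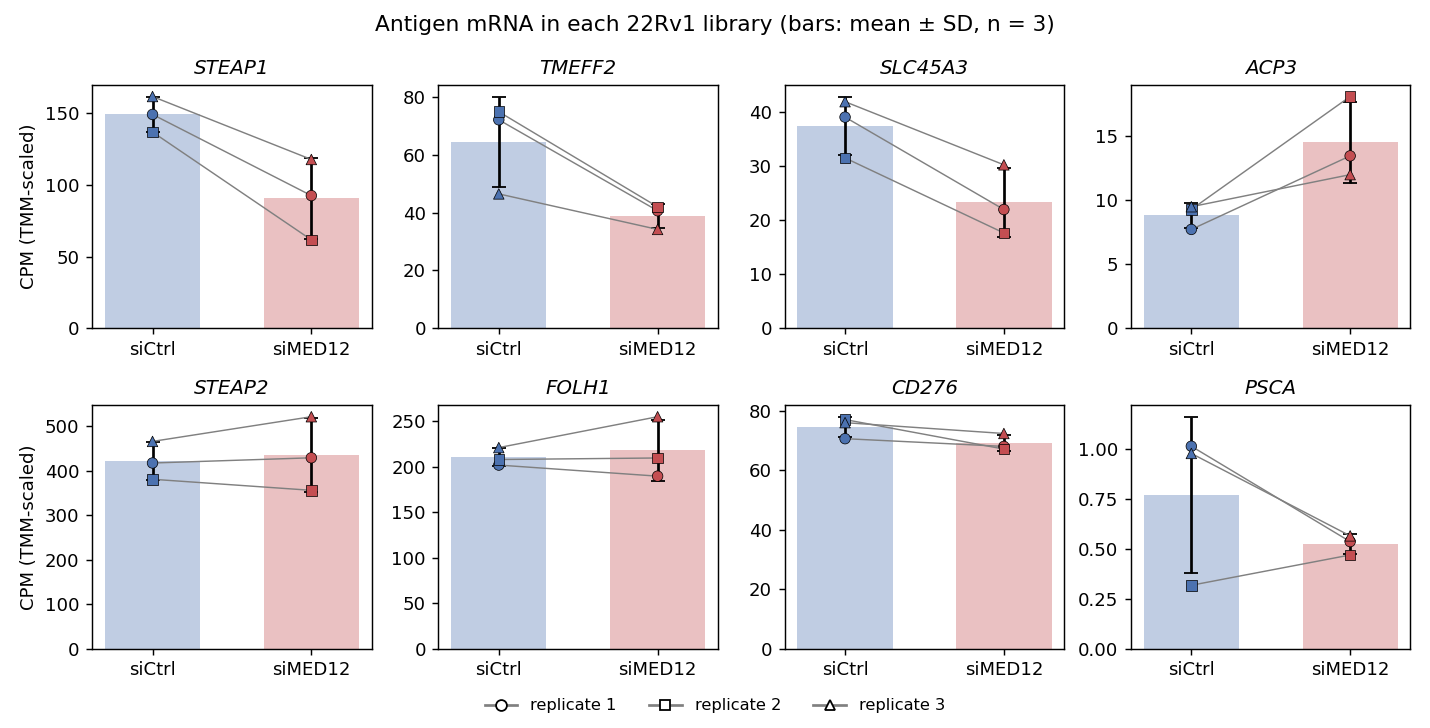
TMM-scaled CPM of 8 antigens in each library (TRPM8, at 0, is not drawn), with bars for the mean ± SD and lines joining the siCtrl and siMED12 libraries of the same replicate number. STEAP1, TMEFF2 and SLC45A3 were lower and ACP3 higher in every siMED12 library, whereas FOLH1, STEAP2 and CD276 overlapped.

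STEAP1 (ENSG00000164647.9, GRCh38 chr7:90154456-90164829, plus strand) was measured at 149, 137 and 162 CPM in siCtrl replicates 1, 2 and 3. In the siMED12 replicates it was 92.6, 61.7 and 118 CPM. The highest siMED12 library thus remained below the lowest siCtrl library, and the means were 149 ± 12.4 and 90.7 ± 28.1 CPM (SD, n = 3). Its log2 fold change was −0.72 unblocked (SE 0.21, edgeR adjusted p = 0.153) and −0.75 blocked (SE 0.07, edgeR adjusted p = 8.27e-12). The 95% interval of the change ran from −56.3% to −15.6% unblocked and from −45.8% to −34.8% blocked. STEAP1 was 54.9% lower between the libraries numbered 2 and 27.2% lower between those numbered 3, both outside the blocked interval. With the block, the DESeq2 Wald test gave −0.77 with a larger SE of 0.19 (adjusted p = 0.00051).

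TMEFF2 (ENSG00000144339.12, chr2:191949043-192194933, minus strand), a transmembrane proteoglycan with follistatin-like and EGF-like domains, was at 72.05, 74.8 and 46.4 CPM in siCtrl and at 40.6, 41.98 and 34.2 CPM in siMED12. The third siCtrl library was well below the other two but still above every siMED12 library. The means were 64.4 ± 15.6 and 38.9 ± 4.17 CPM, a log2 fold change of −0.73 (SE 0.19; edgeR adjusted p = 0.122 unblocked, 1.26e-10 blocked). Leaving out siCtrl replicate 3 gave −0.92 unblocked, with an adjusted p of 0.0449, whereas leaving out any other library gave −0.81 to −0.61, with adjusted p values of 0.222 to 0.375.

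SLC45A3 (ENSG00000158715.6, chr1:205657851-205680509, minus strand), a luminal marker whose upstream region is fused to ETS genes in some prostate tumors, was at 38.97, 31.4 and 41.8 CPM in siCtrl. Its siMED12 libraries were at 21.9, 17.6 and 30.2 CPM. The gap between the groups was narrow, since siMED12 replicate 3 lay just under siCtrl replicate 2. The difference in log2 was −0.69 (SE 0.21; edgeR adjusted p = 0.166 unblocked, 1.03e-08 blocked). Within pairs SLC45A3 was 43.8%, 44.02% and 27.8% lower, and TMEFF2 was 43.6%, 43.9% and 26.4% lower.

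ACP3 (ENSG00000014257.17, chr3:132317369-132368302, plus strand) went the other way. It was at 7.73, 9.30 and 9.51 CPM in siCtrl and at 13.5, 18.1 and 12.02 CPM in siMED12. Every siMED12 library was above every siCtrl library, and the means were 8.85 ± 0.970 and 14.5 ± 3.19 CPM. The depth behind these levels was 130, 147 and 156 counts in siCtrl and 227, 310 and 192 counts in siMED12. These were the fewest of the tested antigens except in siMED12 replicate 2, where SLC45A3 had fewer. The increase of 0.72 in log2 (SE 0.20) had an edgeR adjusted p of 0.149 unblocked and 3.73e-05 blocked, and within pairs ACP3 was 74.3%, 94.9% and 26.4% higher.

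The sequences upstream of these 4 genes are shown because they are the antigens that separated between groups. Each line gives the 250 bases before the RefSeq start of the gene (GRCh38.p14), 5′ to 3′ on the strand of the gene, and capitals mark matches to the letters searched on both strands. The motifs searched included the E-box CACGTG and the TATA box TATAAA.
STEAP1, chr7:90154219-90154468, plus strand: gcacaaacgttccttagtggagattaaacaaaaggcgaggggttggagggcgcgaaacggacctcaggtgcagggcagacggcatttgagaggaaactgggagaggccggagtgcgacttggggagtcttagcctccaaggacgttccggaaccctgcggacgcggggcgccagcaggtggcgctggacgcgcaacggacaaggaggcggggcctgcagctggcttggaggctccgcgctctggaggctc
TMEFF2, chr2:192194934-192195183, minus strand: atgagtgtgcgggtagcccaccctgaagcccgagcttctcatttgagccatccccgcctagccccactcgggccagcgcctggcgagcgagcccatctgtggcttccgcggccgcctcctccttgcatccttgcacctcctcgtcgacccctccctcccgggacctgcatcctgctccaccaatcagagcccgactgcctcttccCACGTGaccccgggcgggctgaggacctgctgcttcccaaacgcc
SLC45A3, chr1:205680510-205680759, minus strand: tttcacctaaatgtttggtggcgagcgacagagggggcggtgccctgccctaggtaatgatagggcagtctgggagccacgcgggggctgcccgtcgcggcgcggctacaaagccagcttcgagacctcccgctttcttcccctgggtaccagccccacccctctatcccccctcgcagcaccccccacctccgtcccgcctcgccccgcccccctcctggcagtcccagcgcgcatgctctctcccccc
ACP3, chr3:132317157-132317406, plus strand: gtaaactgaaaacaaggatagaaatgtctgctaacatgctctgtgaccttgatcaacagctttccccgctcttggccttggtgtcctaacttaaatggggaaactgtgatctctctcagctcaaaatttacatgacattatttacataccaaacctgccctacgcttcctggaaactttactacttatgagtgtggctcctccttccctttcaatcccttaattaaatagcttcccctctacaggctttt
The 3 antigens that were lower had GC-rich windows (64.4% GC for STEAP1, 67.6% for TMEFF2 and 69.2% for SLC45A3, with 21, 18 and 19 CpG dinucleotides). The ACP3 window was 42.0% GC with 2 CpG dinucleotides, beside a median of 58.0% GC over 35116 RefSeq promoters. High GC was not particular to the antigens that were lower, since both CD276 windows (80.8% and 77.2%) and 1 of the 2 STEAP2 windows (69.6% and 32.8%) were as GC-rich or more so. The E-box had 1 match in the 4 windows, in TMEFF2, and is held by 6.34% of all promoters. TATAAA, held by 10.7% of promoters, had no match in these windows. RefSeq entries were matched for 7 of the 9 antigens, and FOLH1 and PSCA are named only.

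FOLH1 (ENSG00000086205.18, chr11:49145092-49208638, minus strand) was at 202, 208 and 221 CPM in siCtrl and at 190, 210 and 255 CPM in siMED12. The siMED12 values spanned those of siCtrl, with means of 210.3 ± 9.82 and 218 ± 33.5 CPM. Its difference in log2 was 0.05 (SE 0.12; edgeR adjusted p = 0.893 unblocked, 0.506 blocked). The 95% interval of the change was −14.1% to 25.2% unblocked and −3.34% to 9.99% blocked, and changes inside these bounds are compatible with the data. Of the 50-base stretches of FOLH1 exons, 20.6% also occur in its near-copy FOLH1B, and how reads matching both were counted is not stated. FOLH1B itself had only 19 to 39 counts per library.

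STEAP2 (ENSG00000157214.14, chr7:90167590-90238137, plus strand) was at 417, 380 and 465 CPM in siCtrl and at 429, 356 and 521 CPM in siMED12. In both groups replicate 2 was the lowest and replicate 3 the highest, and the groups overlapped throughout. The log2 fold change was 0.05 (SE 0.15; edgeR adjusted p = 0.926 unblocked, 0.547 blocked), with a 95% interval of −18.0% to 30.2% unblocked and −3.23% to 8.67% blocked. The directions of FOLH1 and STEAP2 both turned when siMED12 replicate 3 was left out, to log2 fold changes of −0.073 and −0.10, and that of STEAP2 also turned without siCtrl replicate 2, to −0.02.

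CD276 (ENSG00000103855.18, chr15:73683966-73714514, plus strand), an inhibitory ligand of T cells that is found on many solid tumors, was at 70.7, 77.1 and 76.1 CPM in siCtrl. It was at 68.1, 67.2 and 72.4 CPM in siMED12. It was 3.69%, 12.9% and 4.80% lower within the 3 pairs, but siMED12 replicate 3 was above siCtrl replicate 1. The log2 fold change was −0.11 (SE 0.09; edgeR adjusted p = 0.640 unblocked, 0.147 blocked), with a 95% interval of −19.7% to 7.12% unblocked and −14.3% to 0.463% blocked.

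PSCA (ENSG00000167653.5) was too low to be tested. Its counts were 17, 5 and 16 in siCtrl and 9, 8 and 9 in siMED12, or 0.316 to 1.01 CPM and 0.468 to 0.563 CPM. The siMED12 values lay inside the range of siCtrl, so no difference was detectable at this depth. Its exons overlap those of JRK on the opposite strand over 367 bases (20.8% of PSCA exon bases), and although the libraries were strand-specific, the strand setting of the counting is not stated. TRPM8 (ENSG00000144481.17, chr2:233917373-234019522, plus strand), a channel of luminal cells, gave no count in any library of either group.

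**Figure D3:**
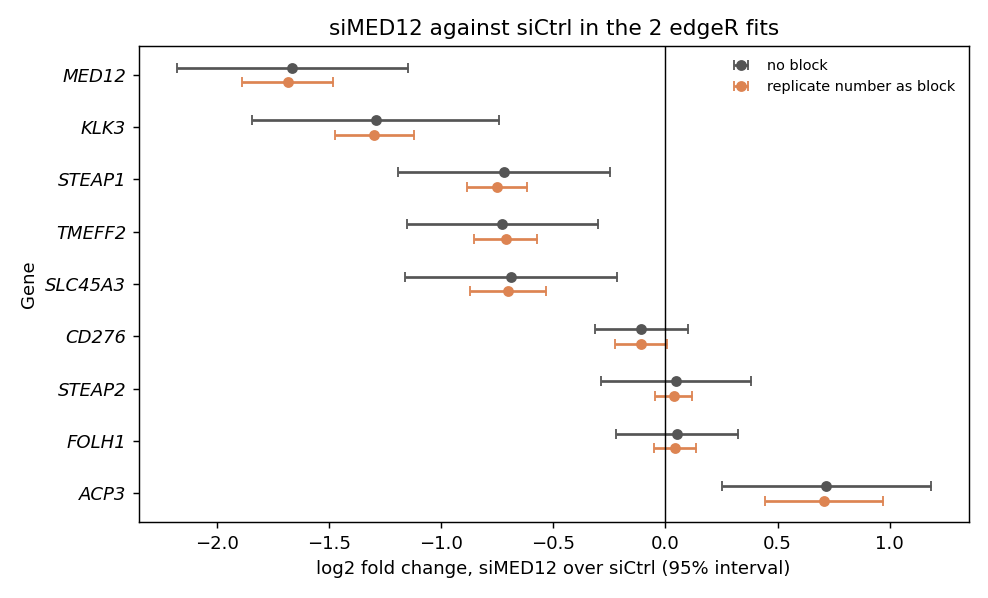
Log2 fold change (siMED12 over siCtrl) of the tested antigens, MED12 and KLK3 with 95% intervals, unblocked and blocked in edgeR. The antigens ran from −0.73 for TMEFF2 to 0.72 for ACP3 unblocked, and the blocked intervals were narrower.

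STEAP1 and STEAP2 lie side by side on the same strand of chromosome 7, and only STEAP1 separated between the groups. Between their Gencode bounds lie 2760 bases and no annotated gene. The RefSeq starts of STEAP2 are further from STEAP1, which ends at base 90164829. The windows before these starts end at bases 90211739 and 90213819. STEAP1 counts were 35.8%, 35.999% and 34.7% of STEAP2 counts in siCtrl replicates 1, 2 and 3 and 21.6%, 17.4% and 22.6% in the siMED12 replicates. The ratio needs no scaling between libraries. On the log2 scale it was −1.49 ± 0.03 in siCtrl and −2.29 ± 0.20 in siMED12 (SD, n = 3), a difference of −0.80. This ratio was chosen after the values of both genes had been seen and is given as a description. A two-sided exact permutation test gave p = 0.1, the smallest value possible with 3 libraries per group, so it cannot decide. Of the 50-base stretches of STEAP1 exons 22.5% also occur in STEAP1B, which had 1 to 16 counts per library.

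Pair 2 had the largest and pair 3 the smallest change for each of STEAP1, TMEFF2, SLC45A3 and ACP3, although pairs 1 and 2 were nearly equal for TMEFF2 and SLC45A3. STEAP1 was 37.9%, 54.9% and 27.2% lower in pairs 1, 2 and 3. MED12 mRNA itself followed the same order of pairs, with the strongest reduction in pair 2 and the weakest in pair 3. With 3 pairs the relation between the loss of MED12 and the change of an antigen was not tested. KLK3, which encodes the secreted antigen PSA and is a classical androgen-induced gene, was 55.5%, 63.2% and 59.7% lower (38.3, 28.3 and 44.3 CPM in siCtrl, 17.05, 10.4 and 17.8 CPM in siMED12). Its log2 fold change of −1.29 (SE 0.24) had an edgeR adjusted p of 0.0617 unblocked and 5.12e-15 blocked. KLK3 was thus lower by more than any of the 7 antigens in each of the 3 pairs. The order of pairs seen for MED12 was not general, since KLK3 and CD276 changed least in pair 1.

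**Figure D4:**
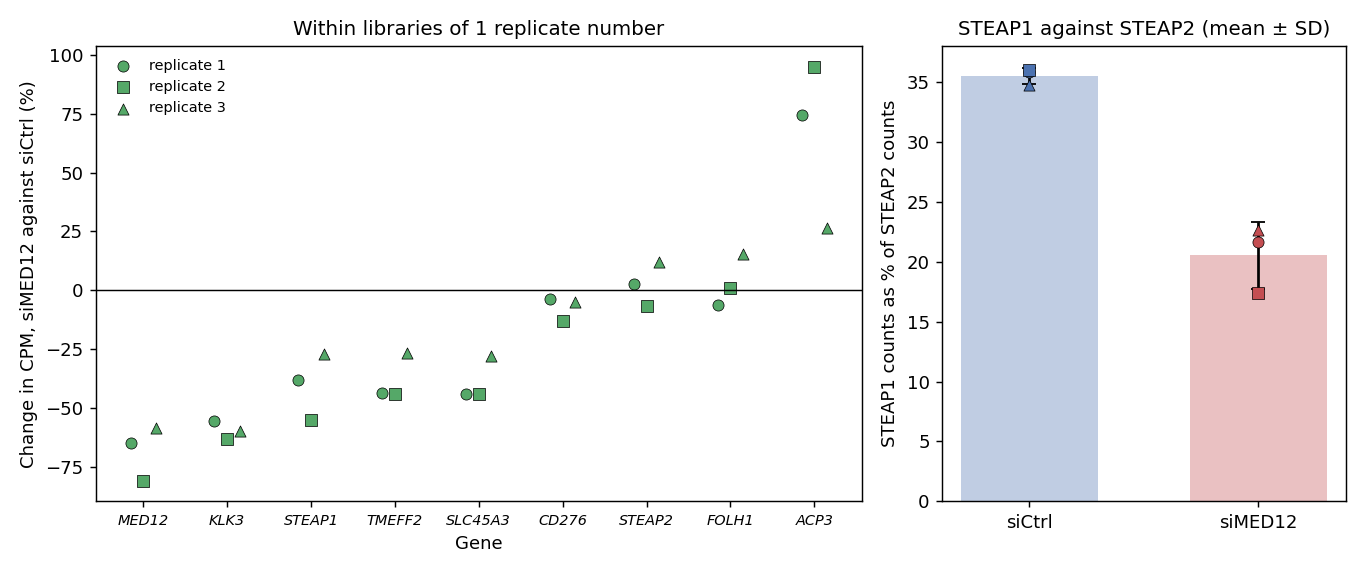
Percent change from siCtrl to siMED12 within each pair of equal replicate number for the tested antigens, MED12 and KLK3 (left), and STEAP1 counts as a percent of STEAP2 counts by library, with bars for the mean ± SD (right). In pair 2 STEAP1 was 54.9% lower and ACP3 94.9% higher, and in pair 3 they were 27.2% lower and 26.4% higher, and every siMED12 ratio was below every siCtrl ratio.

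The pattern over the 3 pairs was compared with 50 other genes of the antigen, paralog, surface target and androgen-reference lists, by the root mean square difference of the within-pair log2 ratios. SLC45A3 and TMEFF2 were closest to each other, at 0.0166, and the next gene for both was F3 at 0.151 for SLC45A3 and 0.163 for TMEFF2. The distance of 0.0166 was below the blocked edgeR SE of either log2 fold change (0.083 for SLC45A3 and 0.070 for TMEFF2). It is thus finer than these data resolve. It was also picked as the smallest over 50 genes from only 3 values each, and was not tested. Their levels did not run together within siCtrl, where replicate 3 was the highest for SLC45A3 and the lowest for TMEFF2. The gene most like STEAP1 was STEAP3 (0.159). EGFR was the nearest to both STEAP2 (0.0369) and FOLH1 (0.0691), ACP1 the nearest to CD276 (0.0743), and for ACP3 no gene was nearer than ERBB2 (0.332).

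Among 38 paralogs of the antigens, 20 passed the filter. Of these, 0 had an adjusted p below 0.05 in unblocked edgeR, against 0.151% of all tested genes higher and 0.413% lower. At an unadjusted p below 0.05 there were 6, against 15.6% of all tested genes. Blocked, 4 were called higher and 2 lower, against 17.1% and 16.2% of all tested genes. The median unblocked log2 fold change was −0.03, beside 0.02 over all tested genes. STEAP3, an endosomal metalloreductase of iron uptake, was at 22.9 ± 2.89 CPM in siCtrl and 13.6 ± 2.75 CPM in siMED12, a log2 fold change of −0.75 (SE 0.19; adjusted p = 0.111 unblocked, 1.82e-07 blocked). The lysosomal acid phosphatase ACP2 was at 25.8 and 32.2 CPM (log2 fold change 0.32, adjusted p = 0.278 unblocked, 0.00192 blocked). TRPM4, a calcium-activated cation channel, had means of 136 CPM in siCtrl and 174 CPM in siMED12 (0.36; 0.354 unblocked, 4.79e-08 blocked), and the complement inhibitor CD59, of the Ly6 family of PSCA, had 41.7 and 56.4 CPM (0.44; 0.0996 unblocked, 8.93e-07 blocked). Other members of the B7 family were below CD276 in siCtrl cells. NCR3LG1, the ligand of NKp30, came next at 7.30 ± 0.996 CPM per kb, VTCN1 was at 0.280 ± 0.201 CPM per kb, and CD80 and PDCD1LG2 were listed at 0 in every library.

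Of 36 other surface targets of antibody or cell therapies, 27 were tested. In unblocked edgeR 1 was called higher and 0 lower, against 0.151% and 0.413% of all tested genes. At an unadjusted p below 0.05 there were 11, against 15.6% of all tested genes. Blocked, 8 were called higher and 8 lower, against 17.1% and 16.2% of all tested genes. The median unblocked log2 fold change was 0.03, beside 0.02 over all tested genes. ALCAM, the adhesion molecule CD166, rose from 290.4 ± 7.82 to 419 ± 6.28 CPM (log2 fold change 0.53, SE 0.08, adjusted p = 0.0397), and was 40.9%, 42.1% and 50.03% higher in the 3 pairs. Its adjusted p was between 0.0677 and 0.204 whenever any 1 of the 6 libraries was left out. All 15 androgen-reference genes were tested. Of these, 0 were called higher and 2 lower unblocked, against 0.151% and 0.413% of all tested genes, and 9 had an unadjusted p below 0.05, against 15.6%. Blocked, 2 were called higher and 10 lower, against 17.1% and 16.2% of all tested genes. Their median unblocked log2 fold change was −0.39, beside 0.02 over all tested genes. KLK4, a prostate serine protease, fell from 379 to 178 CPM (log2 fold change −1.09, adjusted p = 0.0271) and UGT2B15, which glucuronidates androgens, from 49.1 ± 4.11 to 24.9 ± 1.23 CPM (−0.98, SE 0.11, adjusted p = 0.0271). This list was not split by whether androgen raises or lowers a gene. Its median and the fall of UGT2B15 are therefore not a measure of the androgen response. UGT2B15 shares sequence with UGT2B17, so its counts are uncertain. Both calls were lost without siCtrl replicate 1 or 2 or siMED12 replicate 1 or 2, at adjusted p values of 0.0818 to 0.164 for KLK4 and 0.0818 to 0.186 for UGT2B15.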

How the data were processed

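RNA from 22Rv1 cells was sequenced in 6 strand-specific libraries. The authors aligned the reads and counted them per gene with Rsubread against Gencode Release 43 and GRCh38.p13, and the values used are the deposited raw counts of whole reads. The Rsubread version, the strand setting of the counting and the handling of multi-mapping reads are not given in the sources used here. A deposited table of log2 CPM was not used. All count columns were mapped to a sample.

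Genes were filtered with filterByExpr (17901 of 62703 kept), scaled by TMM and tested with the edgeR 4.0.16 quasi-likelihood F-test (R 4.3.3), siMED12 against siCtrl, with Benjamini-Hochberg adjustment over all tested genes and a threshold of 0.05. Standard errors were derived from the fold change and F. The main model had no block, since the methods of the study describe edgeR without one. A batch correction is mentioned in a legend of the study, but the batch is not named. The replicate numbers were checked as pairs: deviations from group means correlated at r = 0.532, 0.373 and 0.643 for equal numbers and at −0.460 to −0.0233 for unequal ones. Such deviations cancel out within a group, so the negative values follow in part from the positive ones and add little to them. On these data alone, libraries of equal number were treated as pairs, and blocked values stand beside the unblocked ones. Blocked edgeR standard errors borrow from the spread of other genes. For a given gene they can be smaller than the spread between its pairs, and blocked p-values and intervals are then too firm. No 2 libraries of a group were duplicates (chi-square per degree of freedom 10.3 to 40.7).

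CPM per kb used merged exons of Gencode release 44 (62686 of 62703 genes matched by ID), which also gave the coordinates. Intervals and floors cover 95% and 3 counts, and those from counts cover counting error only. Alternatives were DESeq2 1.42.0 size factors and Wald test, library size only, limma 3.58.1 trend, other filters, transcript length, the replicate block, each library or pair left out, and a newer edgeR quasi-likelihood method chosen after seeing the data. ALCAM, KLK4, UGT2B15 and STEAP3 were added to these alternatives after seeing the data. The fits were run on simulated data in which libraries of equal number shared a deviation and the treatment effect was the same in every pair. This setting could not test the block where pairs differ in effect, as they did here for MED12 and STEAP1. The promoters were searched for 3 motifs, of which 1 is not reported here. Named genes were the 9 antigens, MED12, KLK3 and, from each other list, those below the threshold without the block or, where there were none, up to 3 in each direction with the largest fold change among those called with the block at a mean of at least 10 CPM. The nearest pattern was sought among tested genes of the lists with at least 10 CPM. B7 family genes other than CD276 were chosen after their values were seen. The antigens and lists were chosen with earlier results of these data known.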

Additional observations from a re-analysis of the deposited data

How the results depend on the processing

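The replicate block had the largest effect on the calls, as it removes the difference between numbered pairs from the error. In edgeR 27 genes were higher and 74 lower without it (2789 at an unadjusted p below 0.05), and 3058 and 2908 with it, and for the antigens 0 higher and 0 lower became 1 higher and 3 lower. It also called KLK3, and it changed no other call of the antigens or MED12. Under the block, scaling by library size only gave 3807 and 2413, DESeq2 size factors 2960 and 3069, the DESeq2 Wald test 1797 and 2064 and the newer quasi-likelihood method 3102 and 2958, with 1 antigen higher and 3 lower in each. Without the block, library size only gave 31 higher and 49 lower genes (38.8% of calls higher, against 26.7% with TMM, and 61.2% against 51.3% with the block), the DESeq2 Wald test 331 and 493 with 1 antigen higher and 3 lower, no filter beyond 1 count 186 and 290 with 3 antigens lower, and a mean of at least 1 CPM 34 and 118. DESeq2 size factors, limma-trend and the newer method without the block called 0 antigens. Leaving out 1 library gave 0 to 8 genes higher and 0 to 37 lower (2017 to 2986 at an unadjusted p below 0.05), with 0 antigens higher and 0 to 1 lower. Leaving out pair 1, 2 or 3 under the block gave 2070, 2199 or 2375 higher and 2578, 2654 or 2579 lower, with 1 antigen higher and 3 lower each time. STEAP2 changed sign without siCtrl replicate 2 (−0.02) and siMED12 replicate 3 (−0.10) and under the block without pair 3 (−0.028), and FOLH1 without siMED12 replicate 3 (−0.073) and under the block without pair 3 (−0.039). The log2 fold changes with 1 library left out ran from −0.10 to 0.15 for STEAP2 and from −0.073 to 0.13 for FOLH1. The cause was not tested. MED12 lost its call without siCtrl replicate 1 or 2 or siMED12 replicate 1 or 2 (adjusted p 0.0818, 0.186, 0.108 and 0.130). The order of the 9 levels was the same with the longest transcript or with library size only. Depth limited PSCA, ACP3 and TRPM8 most.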

Other observations

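Among the other surface targets, 5 genes with large blocked differences are given here, chosen after their values were seen. They are neither ranked nor complete. F3, a gene of the lists compared above, was at 4.82 ± 0.809 CPM per kb in siCtrl and 2.95 ± 0.541 CPM per kb in siMED12. ERBB2, the receptor HER2, was at 99.3 ± 9.99 CPM in siCtrl and 142 ± 6.72 CPM in siMED12 (log2 fold change 0.52, edgeR adjusted p = 0.0666 unblocked, 2.67e-10 blocked). ERBB3, its kinase-impaired dimer partner, was at 242 ± 19.4 and 333 ± 49.5 CPM (0.46; 0.131 unblocked, 2.3e-11 blocked). The adhesion protein P-cadherin, CDH3, was at 70.4 ± 2.96 and 95.2 ± 5.87 CPM (0.43; 0.0808 unblocked, 5.14e-08 blocked). These 3 were above their siCtrl partner in every pair.

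CD44, the hyaluronan receptor, was at 73.0 ± 2.40 CPM in siCtrl and 52.8 ± 1.86 CPM in siMED12 (log2 fold change −0.47, edgeR adjusted p = 0.0654 unblocked, 5.02e-08 blocked), and was 24.5%, 33.0% and 25.4% lower in pairs 1, 2 and 3. The zinc transporter SLC39A6, also called LIV-1, was at 338 ± 20.7 and 248 ± 25.6 CPM (−0.45; 0.0949 unblocked, 2.6e-09 blocked), and was 23.0%, 39.3% and 16.6% lower. None of these 5 genes passed the threshold unblocked.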
